A study of Mus musculus with 6 samples.

Results

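The microRNA response of mouse embryonic stem cells to retinoic acid was described by comparing 1 small RNA library of cells given 1 µM retinoic acid for 24 h with 1 library of cells given 1 µL of the solvent DMSO for the same time. Both libraries were chosen from their treatment labels, and they are 2 of the 6 libraries in the series. The remaining 4 came from cells given BIO (1 µM), CHIR99021 (3 µM), vitamin C (50 µg/ml) or ddH2O (1 µL, the water vehicle). Cells of all 6 libraries were J1 cells, a mouse embryonic stem cell line, grown on gelatin with leukaemia inhibitory factor (LIF, 1000 U/ml), so retinoic acid acted here in medium that also held the factor that maintains such cells. Each group has a single library of a single line. Treatment and library therefore cannot be told apart, no test between the groups was possible, and each fold below carries a 95% exact binomial interval, in parentheses. These intervals measure the error of counting alone, and since the files hold no molecular identifiers, copies made by PCR cannot be set apart from separate molecules. The members described are the 1265 microRNA arms, meaning the 5p or 3p strand of a hairpin, that had at least 1 tag in any library. Numbers and shares of tags are read counts, whereas a printed or most abundant tag is 1 distinct read sequence. Of the 1265 arms, 533 reached 10 CPM in the retinoic acid or the DMSO library and were compared. CPM here is counts per 1000000 microRNA tags of the library. A call of higher or lower needed a difference of at least 2-fold, an interval that left out 1, and 10 CPM in the library with the larger level.

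MicroRNAs are cut from hairpin transcripts by Drosha and Dicer, and 1 or both arms of the duplex are loaded into Argonaute, where the seed, bases 2 to 8 from the 5′ end, pairs with messenger RNAs. Retinoic acid enters the nucleus and binds RAR and RXR receptors, which sit on DNA at retinoic acid response elements, and the Hox genes of the anterior clusters are their best known direct targets in embryonic stem cells. Treated stem cells leave the pluripotent state, and in many protocols they take neural or endodermal paths. In mouse embryonic stem cells the miR-290-295 cluster supplies the largest part of the microRNA pool, whereas let-7 is known for accumulating as cells differentiate.

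The sequences on which the results turn are shown with the seed in capitals, as RefSeq mature microRNAs (GRCm38.p6, written with U) or, where the deposited reads began elsewhere or RefSeq's table gave no entry, as the most abundant deposited tag (written with T). miR-10a and miR-10b share a seed, and miR-99a and miR-100 have a closely similar mature sequence with another seed. These are the Hox-linked arms and their relatives, which were among the most increased.
miR-10a-5p: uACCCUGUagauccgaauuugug
miR-10b-5p: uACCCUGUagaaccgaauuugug
miR-99a-5p: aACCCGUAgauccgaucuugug
miR-100-5p: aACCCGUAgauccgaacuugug

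The members of the miR-181 family have the same seed and come from 3 loci that differed in direction, so their mature sequences are set side by side.
miR-181a-5p: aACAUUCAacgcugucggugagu
miR-181b-5p: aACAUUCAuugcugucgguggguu
miR-181c-5p: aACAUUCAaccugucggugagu
miR-181d-5p: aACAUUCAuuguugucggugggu

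Other arms with large increases are shown because each has a seed of its own. The most abundant miR-217-5p tag began 1 base before the RefSeq start, which moves its seed, so both forms are given.
miR-217-5p, RefSeq: uACUGCAUcaggaacugacugga
miR-217-5p, most abundant tag: aTACTGCAtcaggaactgactgg
miR-219a-2-3p, most abundant tag: aGAATTGTggctggacatctgt
miR-219a-2-5p: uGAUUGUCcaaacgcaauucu
miR-138-5p: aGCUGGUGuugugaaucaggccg
miR-335-5p: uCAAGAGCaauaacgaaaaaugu
miR-470-5p: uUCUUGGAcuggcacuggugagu
miR-465b-3p, most abundant tag: tGATCAGGgcctttctaagtaga
miR-881-3p: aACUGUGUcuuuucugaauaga

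The arms of the miR-290-295 and miR-302 clusters fall into several seed groups that moved by different amounts, and miR-708-5p was among the most decreased arms outside them.
miR-290a-5p: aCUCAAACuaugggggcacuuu
miR-292a-5p: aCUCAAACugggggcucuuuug
miR-293-3p: aGUGCCGCagaguuuguagugu
miR-290a-3p, most abundant tag: aAGTGCCGcctagttttaagccc
miR-294-3p: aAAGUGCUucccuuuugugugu
miR-291a-3p: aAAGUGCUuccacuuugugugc
miR-302d-3p: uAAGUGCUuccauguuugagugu
miR-708-5p: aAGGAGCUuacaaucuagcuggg

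The libraries differed most in how much microRNA they held. MicroRNA tags made up 3.76% of 19373152 tags after retinoic acid (729177 tags) and 11.4% of 18870345 tags in DMSO (2155070 tags), with 6.01% to 9.43% in the other 4 libraries. The retinoic acid library had the lowest share of the 6, and 3 counts, the floor used for arms with no tag, equal 4.11 CPM in it and 1.39 CPM in DMSO. Because every level is relative to a library's own microRNA tags, the choice of scale moves all log2 ratios together. Relative to CPM, they move by -0.36 with median-of-ratios scaling, by -0.51 with TMM scaling, and by -1.60 when all tags of the library, of any kind, are the denominator. A log2 ratio above 1.60, which is a 3.03-fold increase, keeps its sign on every scale. Every smaller increase given here, of an arm, a sum or a median, is a decrease per tag of any kind, whether or not that is repeated beside it. The share of microRNA tags differed between the libraries, also between the vehicles (11.4% in DMSO and 8.59% in ddH2O), and its part in the results was not tested. Fewer cells of a type and less RNA per cell cannot be told apart in such bulk samples.

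Retinoic acid was followed by many more increases than decreases relative to all microRNA tags. Of the 533 arms compared, 177 were called higher (33.2%) and 41 lower (7.69%), and 315 were not called. Among the 281 arms that reached 100 CPM, 80 were called higher and 20 lower. With ddH2O set over DMSO by the same rule, which compares vehicles only, 24 of 484 arms were higher (4.96%) and 11 were lower (2.27%). When retinoic acid was set over ddH2O in place of DMSO, 142 of 537 arms were higher (26.4%) and 35 lower (6.52%). These comparisons share libraries, so they are not independent. The balance of directions depended on scale, with 102 higher and 93 lower under TMM, 121 and 72 under median-of-ratios scaling, and 51 and 294 per tag of any kind. Levels of 45.6% of the 281 arms were within 1.5-fold of each other between retinoic acid and DMSO, and between ddH2O and DMSO those of 81.5% of the 254 arms at that level in either vehicle were. Retinoic acid gave the highest level of all 6 libraries for 284 of the 533 arms (53.3%) and the lowest for 99 (18.6%). It was at least 2-fold above each of the other 5 libraries for 110 arms (20.6%) and at least 2-fold below each for 22 (4.13%).

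**Figure D1:**
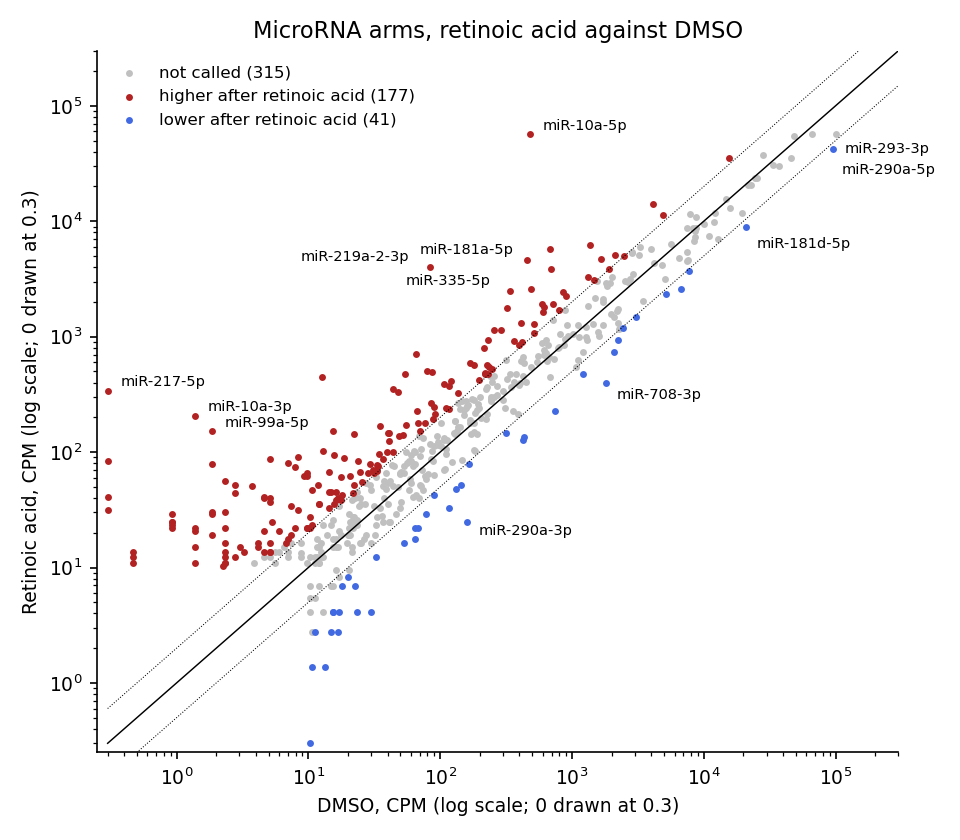
Level of each of the 533 compared arms, in CPM on log axes, after retinoic acid (vertical) and in DMSO (horizontal). The solid line is equality, the dotted lines are 2-fold differences and arms with 0 counts are drawn at 0.3; red points (177) were called higher and blue points (41) lower, a balance that turns to 51 and 294 per tag of any kind, and the labelled miR-10a-5p is at 57226 CPM after retinoic acid and 484 CPM in DMSO.

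An arm that reached 10 CPM only after retinoic acid could be called only higher. Of the 454 arms at 10 CPM in DMSO, 112 were called higher (24.7%) and 41 lower (9.03%). Among increases, 99 arms were between 2-fold and 4-fold, 36 between 4-fold and 8-fold, and 42 above that. Among decreases, 32 arms were between 2-fold and 4-fold, 8 between 4-fold and 8-fold, and 1 above that.

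The arms of the Hox clusters contained the largest change by amount. miR-10a, whose hairpin lies between Hox genes of the HoxB cluster on chromosome 11 and overlaps no annotated gene on its strand (mature arm at chr11:96317186-96317208 (plus strand), GRCm38), is a regulator of Hox transcripts. Its 5p arm had 57226 CPM after retinoic acid, against 484 CPM in DMSO, 369.6 in BIO, 902 in CHIR99021, 997 in vitamin C and 1158 in ddH2O. The 5 other libraries thus all lay far below retinoic acid, but they ran from 369.6 to 1158 CPM, with ddH2O well above DMSO. After retinoic acid the arm was as abundant as the leading arms miR-140-3p (57019 CPM) and miR-293-3p (56716 CPM). It was 118-fold higher (111 to 126) than in DMSO, and the fold over ddH2O is smaller. Its partner strand, miR-10a-3p, had 207 CPM after retinoic acid, against 1.39 CPM in DMSO and 2.38 to 7.0 CPM in the other 4 libraries, and was 149-fold higher (49.9 to 729), an interval wide because DMSO held 3 counts.

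miR-10b, the paralog in introns of Hoxd3 and Hoxd4 on chromosome 2 (chr2:74726074-74726096 (plus strand)), was much rarer. miR-10b-5p had 80.9 CPM after retinoic acid, against 6.96 CPM in DMSO, 5.72 in BIO, 28.0 in CHIR99021, 4.23 in vitamin C and 6.86 in ddH2O, and was 11.6-fold higher (6.51 to 22.1). CHIR99021 was the only other library above 10 CPM for it. The 2 arms of miR-615, from an intron of Hoxc5 on chromosome 15, were at 0 in DMSO. miR-615-5p had 83.7 CPM after retinoic acid, at least 60.1-fold higher than the 3-count floor of DMSO, and miR-615-3p had 31.5 CPM, at least 22.7-fold higher. miR-196a, which targets Hox transcripts of more posterior identity and lies in the HoxB and HoxC clusters, went the other way. miR-196a-5p had 213 CPM after retinoic acid, against 389.8 CPM in DMSO and 468 to 739 CPM in the other 4 libraries, 1.83-fold lower (1.54 to 2.19) and lowest after retinoic acid, and was under the 2-fold threshold. miR-196a-1-3p, its partner strand, was called lower at 42.5 CPM after retinoic acid and 90.5 CPM in DMSO. In all, 5 of the 7 Hox-linked arms compared were called higher and 1 lower, beside 33.2% and 7.69% of all arms, but 3 of the 7 were at 10 CPM in DMSO, and of these 1 was higher and 1 lower. Summed over the 9 arms with tags, the list held 57894 CPM after retinoic acid and 974 CPM in DMSO, 59.5-fold higher (56.9 to 62.2), nearly all of it miR-10a-5p.

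miR-99a and miR-100 are near relatives of miR-10 in sequence. miR-99a-5p, from an intron of its host transcript Mir99ahg on chromosome 16 (chr16:77598940-77598961 (plus strand)), had 152.2 CPM after retinoic acid, against 1.86 CPM in DMSO, 0.953 in BIO, 0 in CHIR99021, 0.529 in vitamin C and 1.14 in ddH2O. It was 82.01-fold higher (31.1 to 306) on 111 tags against 4. miR-100-5p had 43.9 CPM after retinoic acid, against 2.78 CPM in DMSO, 15.8-fold higher (6.50 to 46.1), with 3.70 to 6.19 CPM in the other 4 libraries. The abundant member of this seed group hardly stood out: miR-99b-5p had 5454 CPM after retinoic acid and 2871 CPM in DMSO, 1.90-fold higher (1.82 to 1.98), not called, and below DMSO per tag of any kind. miR-125b-5p, which is made beside miR-99a and miR-100 from the same clusters, had 64.5 CPM after retinoic acid and 49.2 CPM in DMSO, and its interval held 1. Of the 7 arms compared in the miR-99, miR-100 and miR-125 list, miR-99a-5p and miR-100-5p were called higher and none was called lower, beside 33.2% and 7.69% of all arms. Both passed the threshold only through retinoic acid, and none of the 5 arms at 10 CPM in DMSO was called. The list's median log2 ratio was 0.41, which is below 0 under TMM and per tag of any kind.

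**Figure D2:**
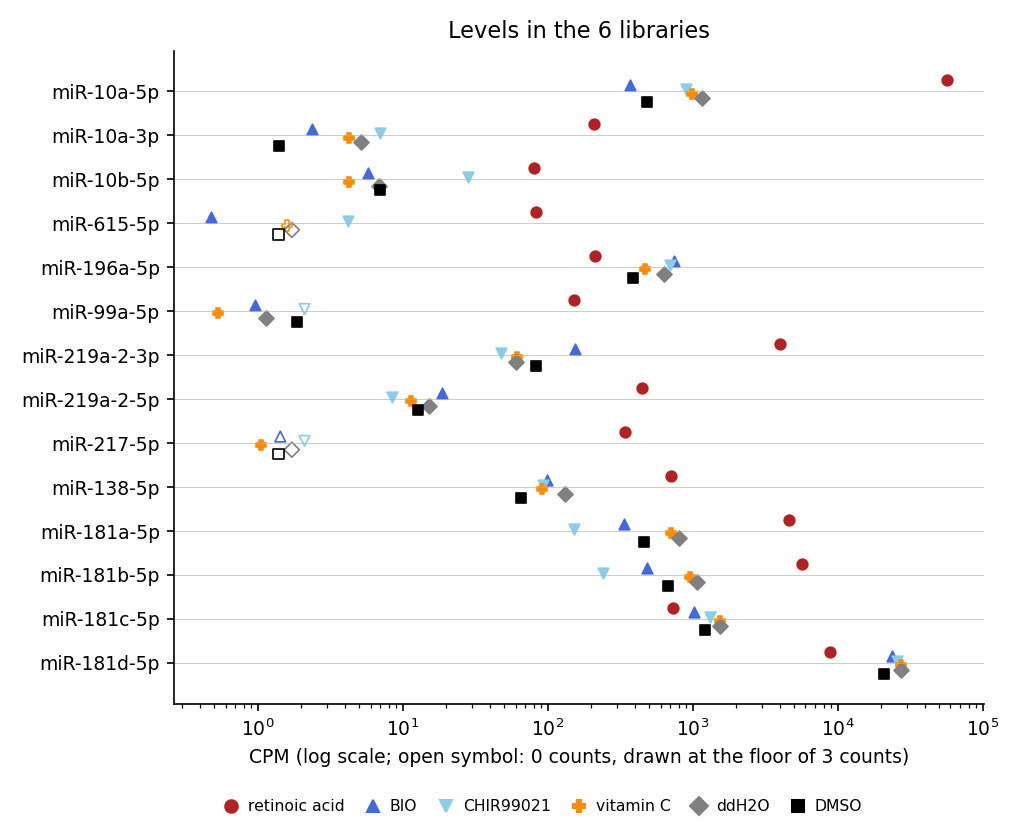
Level of 14 arms in each of the 6 libraries, in CPM on a log axis, 1 symbol per library; an open symbol marks 0 counts and is drawn at that library's 3-count floor. Retinoic acid (red circles) lies to the right of the other 5 libraries for 11 arms and to the left for miR-196a-5p, miR-181c-5p and miR-181d-5p; relative to DMSO these directions hold on every scale used.

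Among microRNAs known from the nervous system, the miR-219a-2 hairpin on chromosome 2 showed the largest rise. It overlaps no annotated gene on its strand, and its 2 arms were increased together. miR-219a-2-3p (chr2:29845645-29845666 (minus strand)) had 4025 CPM after retinoic acid, against 83.5 CPM in DMSO, 154 in BIO, 47.6 in CHIR99021, 61.4 in vitamin C and 60.6 in ddH2O, and was 48.2-fold higher (41.4 to 56.3). miR-219a-2-5p, the arm known for promoting oligodendrocyte differentiation, had 448 CPM after retinoic acid, against 12.8 CPM in DMSO and 8.40 to 18.6 CPM elsewhere, and was 34.5-fold higher (23.4 to 52.8); tags that it shares with the other miR-219a hairpin were split evenly. For both arms the highest of the other libraries was BIO. The 3p arm of the other hairpin, miR-219a-1-3p, had 122 CPM after retinoic acid and 96.1 CPM in DMSO, and its interval held 1. Its 5p arm, miR-219a-1-5p, was called higher at 89.1 CPM after retinoic acid and 18.8 CPM in DMSO, counts that include the split tags.

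miR-138-5p, which in neurons is known as a regulator of dendritic spine size, had 709 CPM after retinoic acid, against 65.9 CPM in DMSO, 99.1 in BIO, 93.1 in CHIR99021, 91.0 in vitamin C and 132 in ddH2O, 10.8-fold higher (8.92 to 13.05). It can come from 2 hairpins, on chromosomes 9 and 8, and the 3p strands specific to each differed, with miR-138-1-3p of chromosome 9 at 24.7 CPM after retinoic acid and 0.928 CPM in DMSO and miR-138-2-3p of chromosome 8 under the floor in both. miR-129-2-3p had 1131 CPM after retinoic acid and 288 CPM in DMSO (3.92-fold higher (3.53 to 4.36)), and miR-135a-2-3p had 79.5 CPM after retinoic acid and 1.86 CPM in DMSO (42.9-fold higher (15.9 to 163)). The best known neuronal microRNA did not share this direction. miR-124a-3p, which represses non-neuronal transcripts in neurons, had 944 CPM after retinoic acid, against 2234 CPM in DMSO, 3310.0 in BIO, 3772 in CHIR99021, 5553 in vitamin C and 2939 in ddH2O, so retinoic acid was the lowest of the 6 libraries, 2.37-fold lower (2.19 to 2.57) than DMSO. miR-9-5p, a microRNA of neural progenitors, had 233 CPM after retinoic acid and 152.2 CPM in DMSO, 1.53-fold higher (1.27 to 1.85) and not called, and was below DMSO per tag of any kind. Its partner strand miR-9-3p was called higher, at 69.9 CPM after retinoic acid and 31.1 CPM in DMSO, but was also below DMSO per tag of any kind. Of the other abundant arms of the list, miR-128-3p had 7267 CPM after retinoic acid and 8549.6 CPM in DMSO. miR-7a-5p had 1001 CPM after retinoic acid and 1279.8 CPM in DMSO, and neither was called. In the neural list, 13 of 23 arms compared were called higher and 2 lower, both from miR-124a, beside 33.2% and 7.69% of all arms. The median log2 ratio was 1.18 against 0.46 for all 533 arms, and it is below 0 per tag of any kind. Both medians include arms that passed only through retinoic acid and could be called only higher. Of the 17 neural arms at 10 CPM in DMSO, 7 were called higher and 2 lower, beside 24.7% and 9.03% of all such arms. Summed over 38 arms with tags, the list held 16551 CPM after retinoic acid and 13067 CPM in DMSO, 1.27-fold higher (1.24 to 1.29), a sum that is lower per tag of any kind.

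miR-217, encoded in an intron of the long noncoding RNA Gm12082 on chromosome 11, and miR-216b, which lies nearby and overlaps no annotated gene on its strand, are known as pancreatic microRNAs and appeared almost only after retinoic acid. miR-217-5p had 341 CPM after retinoic acid (249 tags), no tag in DMSO, BIO, CHIR99021 or ddH2O, and 1.06 CPM in vitamin C. That is at least 245-fold higher than the DMSO floor. miR-216b-5p had 41.1 CPM after retinoic acid and no tag in DMSO, at least 29.6-fold higher. Another hairpin, miR-216a, in an intron of Gm12082 like miR-217, had 1.37 CPM after retinoic acid and none in DMSO, which is under the floor. miR-375-3p, a microRNA of pancreatic islets, had 331 CPM after retinoic acid, against 48.3 CPM in DMSO, 37.6 in BIO, 29.4 in CHIR99021, 56.1 in vitamin C and 105 in ddH2O, 6.85-fold higher (5.42 to 8.70). MicroRNA arms of liver and gut gave mixed values: miR-192-5p had 3169 CPM after retinoic acid and 5088 CPM in DMSO, 1.61-fold lower (1.53 to 1.68) and not called, and the liver microRNA miR-122-5p had 54.9 CPM after retinoic acid and 25.5 CPM in DMSO, called higher but below DMSO per tag of any kind. The endoderm, liver and pancreas list had 4 of 7 arms called higher and none lower, beside 33.2% and 7.69% of all arms, but miR-217-5p and miR-216b-5p passed only through retinoic acid, and of the 5 at 10 CPM in DMSO 2 were higher. The list had a median log2 ratio of 1.11 that is below 0 per tag of any kind. Its sum was 3989 CPM after retinoic acid and 5224 CPM in DMSO, 1.31-fold lower (1.26 to 1.36), because miR-192-5p made up most of it.

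The miR-181 family split by locus. These microRNAs, known for tuning lymphocyte signalling and studied in early embryonic fate choice, have 1 seed (ACAUUCA) and are made from 3 pairs of hairpins. miR-181a-5p, from the pairs on chromosomes 1 and 2, had 4620.3 CPM after retinoic acid, against 459.8 CPM in DMSO, 338 in BIO, 151 in CHIR99021, 710.0 in vitamin C and 806 in ddH2O, 10.05-fold higher (9.36 to 10.8). miR-181b-5p, from the same pairs, had 5723 CPM after retinoic acid, against 677 CPM in DMSO, 481 in BIO, 242 in CHIR99021, 965 in vitamin C and 1068 in ddH2O, 8.45-fold higher (7.96 to 8.97). Both were highest after retinoic acid and lowest in CHIR99021. The partner strands are specific to a locus. The miR-181a-1-3p arm of chromosome 1 had 20.6 CPM after retinoic acid and 1.39 CPM in DMSO, and miR-181a-2-3p of chromosome 2 had 147 CPM after retinoic acid and 40.8 CPM in DMSO, 3.59-fold higher (2.69 to 4.82), and both were called higher. miR-181b-1-3p of chromosome 1 was called higher at 13.7 CPM after retinoic acid and 0.464 CPM in DMSO, whereas miR-181b-2-3p of chromosome 2, at 0 CPM after retinoic acid and 1.39 CPM in DMSO, was too rare to compare.

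The third pair, miR-181c and miR-181d, lies in an intron of Nanos3, a gene of germ cell development, on chromosome 8. miR-181d-5p had 8907 CPM after retinoic acid, against 20843 CPM in DMSO, 23841 in BIO, 25484 in CHIR99021, 27216 in vitamin C and 27434 in ddH2O, so the 5 other libraries were all above retinoic acid, which was 2.34-fold lower (2.28 to 2.40) than DMSO. miR-181c-5p had 731 CPM after retinoic acid, against 1212 CPM in DMSO and 1028 to 1537 CPM elsewhere, 1.66-fold lower (1.51 to 1.82) and not called. Of the 4 arms of this pair compared, 3 were called lower, with 9786 CPM after retinoic acid and 22389.5 CPM in DMSO in sum, 2.29-fold lower (2.23 to 2.35). The chromosome 1 pair had 4 of 4 arms called higher, of which the 2 partner strands passed only through retinoic acid, and held 10378 CPM after retinoic acid and 1139 CPM in DMSO, 9.11-fold higher (8.70 to 9.54), counting in full the arms it shares with chromosome 2. These opposite changes nearly cancelled in the seed. The 4 mature 5p arms together held 19981 CPM after retinoic acid and 23192 CPM in DMSO, 1.16-fold lower (1.14 to 1.18), while miR-181a and miR-181b grew in share within it. Over the family as a whole, 5 of 9 arms compared were called higher and 3 lower, beside 33.2% and 7.69% of all arms. The family's median log2 ratio of 1.84 includes the 2 partner strands of chromosome 1 that passed only through retinoic acid. Of the 7 at 10 CPM in DMSO, 3 were higher and 3 lower, beside 24.7% and 9.03% of all such arms.

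The microRNA cluster between Mir743 and Mir465 on the X chromosome (chrX:66776757-66839125, minus strand), whose members are best known from testis and germ cells, was raised as a block. miR-470-5p had 351 CPM after retinoic acid, against 43.6 CPM in DMSO, 42.9 in BIO, 30.1 in CHIR99021, 36.5 in vitamin C and 56.6 in ddH2O, 8.05-fold higher (6.33 to 10.3). miR-465b-3p had 476 CPM after retinoic acid, against 53.8 CPM in DMSO, 69.1 in BIO, 37.1 in CHIR99021, 71.95 in vitamin C and 91.5 in ddH2O, 8.84-fold higher (7.14 to 11.01), although its copies among the Mir465 hairpins cannot be told apart by sequence. miR-881-3p had 152.2 CPM after retinoic acid, against 15.3 CPM in DMSO and 9.80 to 30.3 CPM elsewhere, 9.94-fold higher (6.69 to 15.1). miR-465c-5p had 492 CPM after retinoic acid and 86.3 CPM in DMSO, 5.70-fold higher (4.77 to 6.85). For each of the 4, every other library was below retinoic acid.

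**Figure D3:**
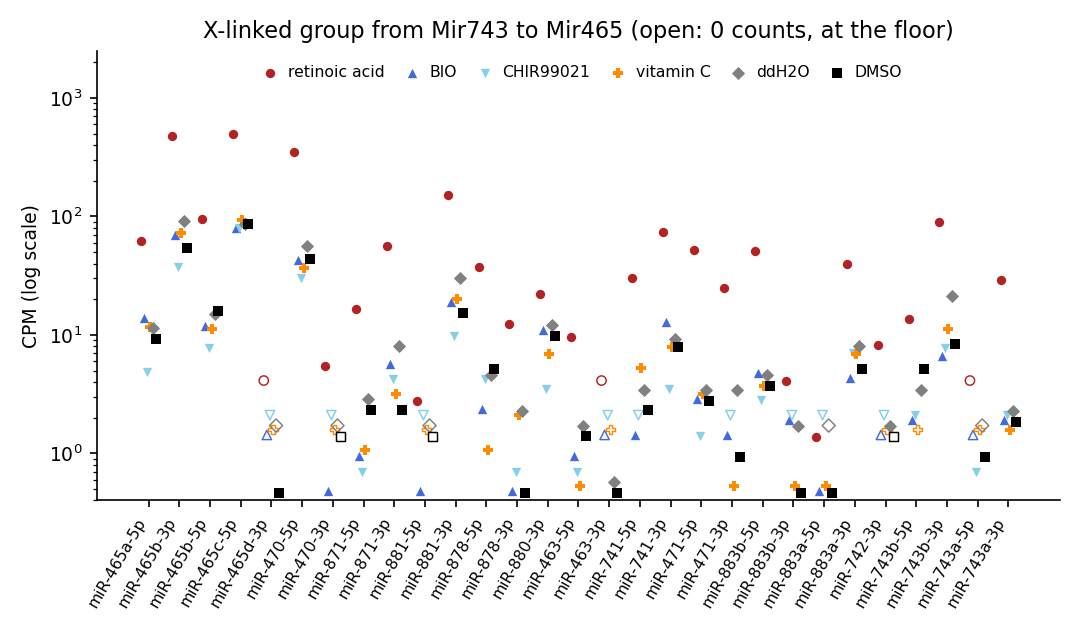
Level of the 29 arms with tags from the X-linked group in the 6 libraries, in CPM on a log axis, 1 column per arm; open symbols mark 0 counts, drawn at the library's 3-count floor. The retinoic acid symbols (red circles) stand above the others in the 20 compared arms, whose median log2 ratio stays above 0 on every scale.

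Of the 29 arms of this cluster with tags, 20 were compared and all 20 were called higher, but 15 of them reached 10 CPM only after retinoic acid, so that rule could pass them only as higher. All 5 that were at 10 CPM in DMSO were higher too. Log2 ratios of the 20 ran from 1.18 to 4.48, with a median of 3.17 against 0.46 over all arms. Summed over the 29 arms, which no threshold selects, the cluster held 2208 CPM after retinoic acid and 286 CPM in DMSO, 7.71-fold higher (7.02 to 8.48), with 211 to 386 CPM in the other 4 libraries. Under TMM 18 of the 20 were called higher, and per tag of any kind 15 were.

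Arms of the X chromosome, counted with the 20 of this cluster, leaned upward. Of 65 compared arms encoded there, 44 were called higher and 3 lower, a median log2 ratio of 1.38 that is below 0 per tag of any kind. Of the 43 X-encoded arms at 10 CPM in DMSO, 22 were higher, including 5 of the cluster, and 3 lower, against 112 higher and 41 lower of the 454 such arms on all chromosomes. This lean was not particular to the X chromosome. On chromosome 2, 29 of 48 such arms were higher and 3 lower. That count includes arms of the Sfmbt2 cluster described below, in which 25 of 30 such arms were higher. The 14 compared arms of chromosome 9 had a median log2 ratio of 1.38. Outside the cluster above, the Mir500 to Mir532 group in an intron of Clcn5 had 7 of 7 arms called higher, beside 33.2% of all arms (4 under TMM and 2 per tag of any kind), and summed to 1757 CPM after retinoic acid and 498 CPM in DMSO, 3.53-fold higher (3.25 to 3.83). The miR-322 and miR-503 group, which slows the cell cycle in myoblasts, summed to 5173 CPM after retinoic acid and 2009 CPM in DMSO, 2.57-fold higher (2.46 to 2.69), with 4 of 9 arms called higher, beside that same share, and its median log2 ratio of 1.01 is below 0 per tag of any kind. The miR-221 and miR-222 pair, which represses Cdkn1b (p27) in several cell types, had 3 of 3 arms called higher, beside 33.2% of all arms. In it miR-222-3p was at 1075 CPM after retinoic acid and 518 CPM in DMSO and miR-221-3p at 924 CPM after retinoic acid and 366 CPM in DMSO. The median of the pair, 1.26, is below 0 per tag of any kind.

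MicroRNA arms of imprinted loci differed among themselves. miR-335, in an intron of the paternally expressed gene Mest on chromosome 6 (chr6:30741314-30741336 (plus strand)), had its 2 arms raised alike. miR-335-5p had 2477 CPM after retinoic acid, against 340.1 CPM in DMSO, 317 in BIO, 369.6 in CHIR99021, 374 in vitamin C and 332 in ddH2O, 7.28-fold higher (6.68 to 7.95), and miR-335-3p had 502 CPM after retinoic acid and 79.8 CPM in DMSO, 6.29-fold higher (5.23 to 7.58). The other libraries were within a narrow range for both arms. The repeat-rich cluster in an intron of Sfmbt2 on chromosome 2 (miR-297, miR-466, miR-467 and miR-669), which is rodent-specific and imprinted in the placenta, held 44324 CPM after retinoic acid and 18674 CPM in DMSO over 65 arms with tags, 2.37-fold higher (2.34 to 2.41). In it 33 of 42 compared arms were called higher and none lower, a share above the 33.2% of all arms, and 25 of the 30 that were at 10 CPM in DMSO were higher. Its leading arm, miR-669c-5p, had 35603 CPM after retinoic acid, against 15593 CPM in DMSO, 20686 in BIO, 17233 in CHIR99021, 11719.7 in vitamin C and 14044 in ddH2O, 2.28-fold higher (2.25 to 2.32). The near-identical hairpins share tags, so values of single arms are uncertain, and the median log2 ratio of 1.34 is below 0 per tag of any kind. The Dlk1-Dio3 locus on chromosome 12, expressed from the maternal chromosome and tied to full developmental potential in stem cells, changed less. Its 103 arms with tags held 106905 CPM after retinoic acid and 78953 CPM in DMSO, 1.35-fold higher (1.34 to 1.37), with 43210 to 80595 CPM in the other 4 libraries. There 19 of 81 compared arms were called higher and 1 lower, a share under that of all arms, and 65 of the 81 had their highest level of the 6 libraries after retinoic acid, beside 53.3% of all arms. Among the 19, miR-434-3p had 4704 CPM after retinoic acid and 1659 CPM in DMSO, and miR-487b-3p had 2433 CPM after retinoic acid and 850.1 CPM in DMSO. The median of the locus, 0.53, is below 0 per tag of any kind.

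The miR-290-295 cluster on chromosome 7, which marks the cells as embryonic stem cells, was the largest of the lists in both libraries but took a smaller share. Its 16 arms with tags held 168349 CPM after retinoic acid and 291810 CPM in DMSO, 1.73-fold lower (1.72 to 1.74), with 272761 to 342476 CPM in the other 4 libraries. Of 14 compared arms, 4 were called lower and none higher, beside 7.69% lower over all arms, and 12 of the 14 had their lowest level of the 6 libraries after retinoic acid, beside 18.6% of all arms. Under TMM 9 were called lower, per tag of any kind 14, and with ddH2O in place of DMSO 2. The median log2 ratio was -0.74. Members differed in the size of the decrease. miR-290a-5p, the second most abundant arm in DMSO, had 42548 CPM after retinoic acid, against 96000.1 CPM in DMSO, 105084 in BIO, 88707 in CHIR99021, 66730.3 in vitamin C and 76979 in ddH2O, 2.26-fold lower (2.23 to 2.28). miR-292a-5p had 2333 CPM after retinoic acid, against 5215 CPM in DMSO, 2.24-fold lower (2.12 to 2.35), and miR-295-5p was 2.07-fold lower (1.94 to 2.21). The fourth called arm, miR-290a-3p, is rare and had 24.7 CPM after retinoic acid, against 159 CPM in DMSO, 6.43-fold lower (4.01 to 10.98), with 109.8 to 177 CPM elsewhere. miR-293-3p, the most abundant arm of DMSO, had 56716 CPM after retinoic acid, against 101118 CPM in DMSO, 103384 in BIO, 134979 in CHIR99021, 112847 in vitamin C and 101958 in ddH2O, 1.78-fold lower (1.76 to 1.80) and short of a call.

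Arms whose most abundant tag has the seed AAGUGCU hardly moved in CPM. Through this seed the miR-290-295 cluster and miR-302 are known to relieve inhibition of the cell cycle at the G1 to S transition in stem cells. On every other scale used, miR-294-3p, miR-291a-3p and the sum of this seed are lower than in CPM and below DMSO. Per tag of any kind, all 14 compared arms of the cluster were called lower. miR-294-3p had 23544 CPM after retinoic acid, against 25358 CPM in DMSO, 24724 in BIO, 29536 in CHIR99021, 23860.5 in vitamin C and 22789.8 in ddH2O, 1.08-fold lower (1.06 to 1.10), and miR-291a-3p had 4335 CPM after retinoic acid and 4216 CPM in DMSO, with an interval that held 1. All arms whose most abundant tag has this seed together held 27942 CPM after retinoic acid and 29619.9 CPM in DMSO, 1.06-fold lower (1.04 to 1.08). This sum leaves out miR-295-3p, whose most abundant tag has the seed AGUGCUA, shifted by 1 base. The seed CUCAAAC of miR-290a-5p, miR-292a-5p and miR-293-5p held 49637 CPM after retinoic acid and 107701 CPM in DMSO, 2.17-fold lower (2.15 to 2.19), and miR-293-3p with the seed GUGCCGC was listed above. miR-295-3p, the abundant member left out of the AAGUGCU sum, had 11832 CPM after retinoic acid and 19586 CPM in DMSO, 1.66-fold lower (1.62 to 1.69). The miR-302 and miR-367 cluster of primed stem cells was scarce, at 91.9 CPM after retinoic acid and 122 CPM in DMSO over 9 arms with tags, 1.33-fold lower (1.01 to 1.76). Of its 4 compared arms only miR-302a-5p was called, lower at 21.9 CPM after retinoic acid and 68.2 CPM in DMSO, beside 7.69% lower over all arms. The list's median log2 ratio of 0.05 is below 0 under TMM, median-of-ratios and all-tag scaling.

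let-7, known to accumulate as stem cells differentiate, was near its DMSO level. Its 15 arms with tags held 89650.4 CPM after retinoic acid and 86931 CPM in DMSO, 1.03-fold higher (1.02 to 1.04), a sum that is below DMSO on each of the 3 other scales. None of 9 compared arms was called, beside 33.2% called higher and 7.69% lower of all arms. Single members went in both directions, with let-7c-5p at 37495 CPM after retinoic acid and 28349.7 CPM in DMSO, let-7a-5p at 13061 CPM after retinoic acid and 15838 CPM in DMSO and let-7f-5p at 23688 CPM after retinoic acid and 24426 CPM in DMSO. The miR-17-92 cluster and its paralogs, which promote proliferation, held 78332 CPM after retinoic acid and 90619 CPM in DMSO, 1.16-fold lower (1.15 to 1.17). Of their 24 compared arms, 1 was called higher and 3 lower, beside 33.2% and 7.69% of all arms. Their median log2 ratio of 0.11 is below 0 on each of the 3 other scales. Its most abundant arms had 35325 CPM after retinoic acid and 45816 CPM in DMSO (miR-25-3p) and 15586 CPM after retinoic acid and 14847 CPM in DMSO (miR-92a-3p). The partner strand miR-25-5p was called lower at 3675 CPM after retinoic acid and 7706 CPM in DMSO. Of the abundant arms outside the lists, miR-103-3p had 54398 CPM after retinoic acid and 48548 CPM in DMSO. miR-423-5p had 29956 CPM after retinoic acid and 37498 CPM in DMSO, and neither was called.

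Outside the pluripotency cluster, the largest decreases were of several kinds. miR-708, in an intron of Tenm4 on chromosome 7 (5p arm at chr7:96249450-96249472 (plus strand)), had its 2 arms lowered. miR-708-3p had 400.5 CPM after retinoic acid, against 1821 CPM in DMSO, 1934 in BIO, 1261 in CHIR99021, 1152 in vitamin C and 942 in ddH2O, 4.55-fold lower (4.04 to 5.14), and miR-708-5p had 732 CPM after retinoic acid, against 2079 CPM in DMSO, 2166 in BIO, 1586 in CHIR99021, 2234 in vitamin C and 2496 in ddH2O, 2.84-fold lower (2.60 to 3.11). Retinoic acid was the lowest library for both arms, although ddH2O lay well below DMSO for the 3p arm. miR-672-5p, in an intron of Nexmif on the X chromosome, had 2585 CPM after retinoic acid, against 6679.6 CPM in DMSO, 2.58-fold lower (2.46 to 2.71). The partner strands of miR-23b and miR-27b were lowered too, with miR-23b-5p at 128 CPM after retinoic acid and 426 CPM in DMSO (3.34-fold lower (2.69 to 4.18)) and miR-27b-5p at 134 CPM after retinoic acid and 435 CPM in DMSO (3.24-fold lower (2.63 to 4.03)). In the miR-23, miR-27 and miR-24 list, 3 of 7 arms were called lower and none higher, beside 7.69% lower over all arms, the median log2 ratio was -0.83, and the sum was 5047 CPM after retinoic acid and 8078 CPM in DMSO, 1.60-fold lower (1.54 to 1.66). Abundant members such as miR-23a-3p (1726 CPM after retinoic acid and 2238 CPM in DMSO) and miR-24-3p (1094 CPM after retinoic acid and 1572 CPM in DMSO) were not called. In the sensory cluster, which holds miR-182, miR-183 and miR-96, 2 of 6 arms were called lower (all 6 under TMM) and none higher, beside 7.69% lower over all arms. All 6 had their lowest level of the 6 libraries after retinoic acid, as 18.6% of all arms did, and the sum was 6392 CPM after retinoic acid and 10622 CPM in DMSO, 1.66-fold lower (1.61 to 1.72). Its main arm miR-182-5p had 4597 CPM after retinoic acid and 7562 CPM in DMSO, 1.64-fold lower (1.58 to 1.71) and not called.

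Other decreases differed between the vehicles. miR-149-3p had 32.9 CPM after retinoic acid, against 116 CPM in DMSO, 134 in BIO, 90.3 in CHIR99021, 43.9 in vitamin C and 46.9 in ddH2O, 3.52-fold lower (2.31 to 5.61) than DMSO, but vitamin C and ddH2O were also low. miR-877-5p, a mirtron whose ends are made by splicing rather than by Drosha, had 228 CPM after retinoic acid, against 746 CPM in DMSO, 977 in BIO, 618 in CHIR99021, 394 in vitamin C and 306 in ddH2O, 3.28-fold lower (2.79 to 3.87) than DMSO and nearer to ddH2O. miR-296-3p had 470.4 CPM after retinoic acid, against 1219.9 CPM in DMSO, 285 in BIO, 409.5 in CHIR99021, 410.0 in vitamin C and 257 in ddH2O, 2.59-fold lower (2.32 to 2.91) than DMSO but higher than ddH2O, BIO, CHIR99021 and vitamin C; tags of 18 to 19 bases made up 89.05% of its tags, and with tags of 20 to 24 bases alone its log2 ratio was 0.20. The rarer miR-1968-5p (52.1 CPM after retinoic acid and 144 CPM in DMSO) and miR-6539-5p (48.0 CPM after retinoic acid and 133 CPM in DMSO) were lowest after retinoic acid among the 6 libraries. A further list held microRNAs that skip Drosha or DGCR8 or, for miR-451a, Dicer. Of its 6 compared arms, 1 was called higher, miR-451a-5p, which passed only through retinoic acid, and 1 lower, miR-877-5p. Over all arms the shares were 33.2% and 7.69%. The list's sum was 31309 CPM after retinoic acid and 34587 CPM in DMSO, 1.10-fold lower (1.09 to 1.12), while its median log2 ratio of 0.28 is above 0 and turns below 0 on each of the 3 other scales. The most abundant member, miR-320-3p, had 30884 CPM after retinoic acid and 33706 CPM in DMSO.

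MicroRNAs that mark other cell types were examined for signs of other cells or of differentiation. miR-1a-3p, the muscle microRNA, had 6259 CPM after retinoic acid, against 1376 CPM in DMSO, 1161 in BIO, 579.6 in CHIR99021, 1676 in vitamin C and 2818 in ddH2O, 4.55-fold higher (4.34 to 4.76), so ddH2O and DMSO themselves differed. miR-133a-3p was called higher too, at 10.97 CPM after retinoic acid and 2.32 CPM in DMSO, while the cardiac miR-208a-3p and the muscle miR-133b-3p had no tag in either library and miR-208a-5p had 4.11 CPM after retinoic acid and 0 CPM in DMSO. The muscle and heart list had 2 of 4 compared arms called higher and none lower, beside 33.2% and 7.69% of all arms, and 1 of the 3 at 10 CPM in DMSO was higher. The list had a median log2 ratio of 1.58 that is just below 0 per tag of any kind. Its sum was 6595 CPM after retinoic acid and 1605 CPM in DMSO. In the mesenchymal list, 5 of 8 arms were called higher and none lower, beside the same shares of all arms, and 4 of the 7 at 10 CPM in DMSO. They included miR-21a-5p at 11344 CPM after retinoic acid and 4877 CPM in DMSO and miR-22-3p at 1142 CPM after retinoic acid and 256 CPM in DMSO. miR-145a-5p was also called higher, at 173 CPM after retinoic acid and 54.8 CPM in DMSO. miR-143-3p (946 CPM after retinoic acid and 882 CPM in DMSO) and miR-199a-3p (1046 CPM after retinoic acid and 805 CPM in DMSO) were not called. That list's median of 1.41 is below 0 per tag of any kind, and its sum was 14846 CPM after retinoic acid and 7006 CPM in DMSO. Blood cell microRNAs were scarce, with a sum of 217 CPM after retinoic acid and 296 CPM in DMSO and the defining miR-142a-5p at 82.3 CPM after retinoic acid and 124 CPM in DMSO. Of their 6 compared arms, 2 were called higher, both through retinoic acid alone, and 2 lower, beside 33.2% and 7.69% of all arms. Their median log2 ratio was -0.59. The epithelial miR-200, miR-203 and miR-205 list had 1 of 7 arms called higher and none lower, beside those same shares of all arms. It summed to 1341 CPM after retinoic acid and 1289 CPM in DMSO, 1.04-fold higher (0.967 to 1.12), with miR-200a-3p at 458 CPM after retinoic acid and 426 CPM in DMSO. Its median of 0.09 is below 0 on each of the 3 other scales. The part of other cell types in the results was not tested.

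Among the other families listed, miR-34c and miR-152 had large increases. miR-34c-5p, of the p53-responsive miR-34 family, had 14120 CPM after retinoic acid, against 4132 CPM in DMSO, 3852 in BIO, 3824 in CHIR99021, 6098 in vitamin C and 6688 in ddH2O, 3.42-fold higher (3.32 to 3.52). Its neighbour miR-34b-5p had 225 CPM after retinoic acid and 67.3 CPM in DMSO, 3.34-fold higher (2.66 to 4.21), whereas miR-34a-5p, from another chromosome, had 239 CPM after retinoic acid and 196 CPM in DMSO and was not called. In the miR-34 and miR-449 list, 4 of 8 arms, those of the miR-34b and miR-34c hairpins, were called higher and none lower, beside 33.2% and 7.69% of all arms. The median log2 ratio of 1.20 is below 0 per tag of any kind, where none was higher and 3 were lower. miR-152-3p, in an intron of Copz2, had 3839 CPM after retinoic acid, against 689 CPM in DMSO, 663 in BIO, 501 in CHIR99021, 1193 in vitamin C and 1677 in ddH2O, 5.57-fold higher (5.23 to 5.94). It shares its seed with miR-148a-3p (341 CPM after retinoic acid and 302 CPM in DMSO) and miR-148b-3p (662 CPM after retinoic acid and 675 CPM in DMSO), which were not called. The miR-148 and miR-152 list thus had 1 of 4 arms called higher and none lower, beside 33.2% and 7.69% of all arms. Its median of 0.08 is below 0 on each of the 3 other scales.

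In the miR-15 and miR-16 family, which restrains the cell cycle, 5 of 12 arms were called higher and none lower, near the 33.2% of all arms, and per tag of any kind none was higher and 6 were lower. The called arms were led by miR-16-5p at 4999 CPM after retinoic acid and 2468 CPM in DMSO and miR-503-5p at 3313 CPM after retinoic acid and 1334 CPM in DMSO. The family summed to 12436 CPM after retinoic acid and 5856 CPM in DMSO, 2.12-fold higher (2.07 to 2.18), and its median log2 ratio of 0.70 is below 0 per tag of any kind. The miR-26 list had 1 of 2 arms called higher, miR-26a-5p at 3855 CPM after retinoic acid and 1918 CPM in DMSO, which is below DMSO per tag of any kind. The miR-29 list had 1 of 3, miR-29c-3p at 571 CPM after retinoic acid and 227 CPM in DMSO, and its median of 0.54 is below 0 per tag of any kind. The miR-30 list had 1 of 10 arms called higher, and the miR-130 and miR-301 list had none of 8 called. Neither of these had an arm called lower, and their medians, 0.29 and 0.17, are below 0 on each of the 3 other scales. The shares over all arms, to be set beside each count in this paragraph, were 33.2% higher and 7.69% lower.

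**Figure D4:**
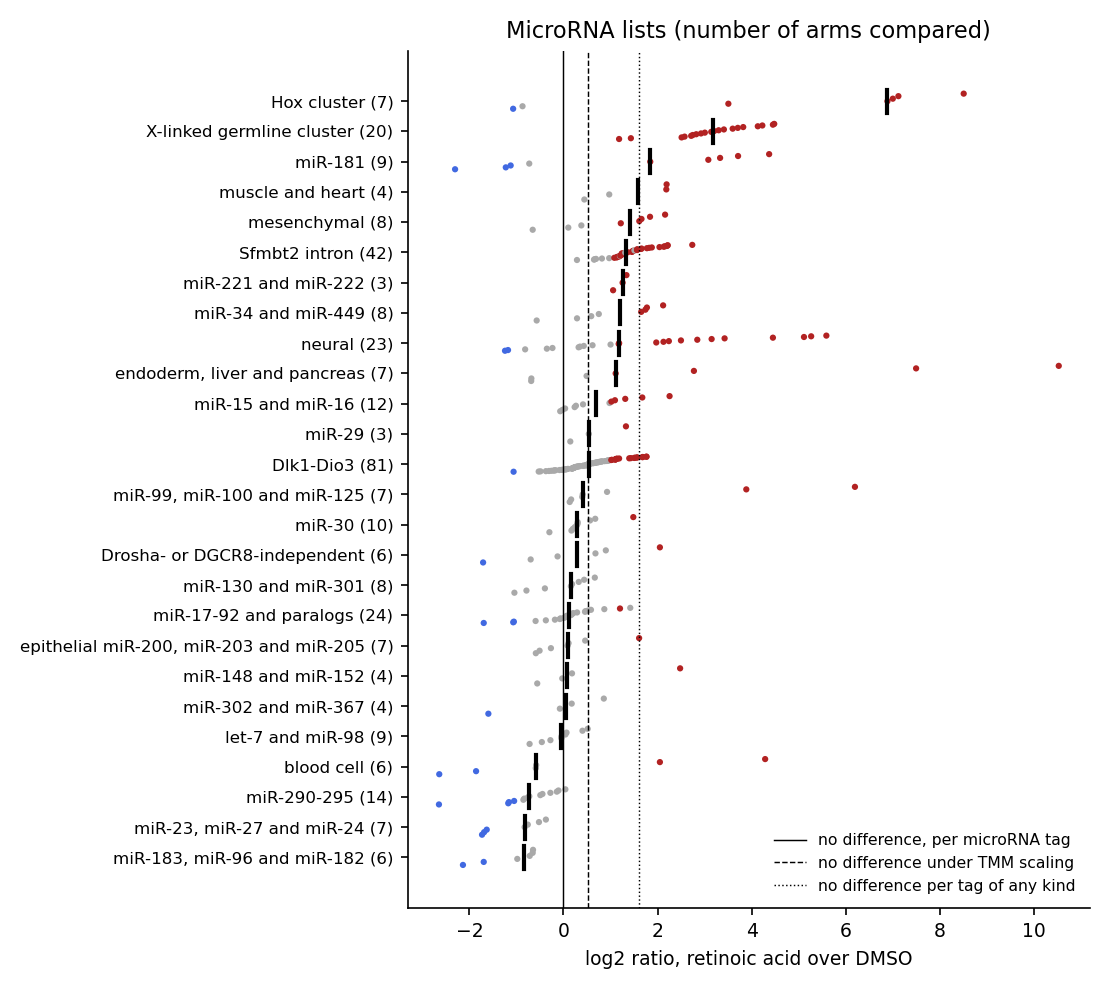
Log2 ratio, retinoic acid over DMSO, of each compared arm (points; red called higher, blue called lower, grey not called) in the 26 lists with at least 3 compared arms, given in parentheses, with the list median as a black bar. The solid line is 0 in CPM, the dashed line is where 0 lies under TMM and the dotted line where it lies per tag of any kind. Medians of the Hox cluster, the X-linked germline cluster and miR-181 stay to the right of all 3 lines. They include arms that reached 10 CPM only after retinoic acid. In the same order, arms at 10 CPM in DMSO numbered 3 of 7 (1 higher, 1 lower), 5 of 20 (5 higher) and 7 of 9 (3 higher, 3 lower). The list labelled Drosha- or DGCR8-independent also holds miR-451a, which skips Dicer instead.

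Hairpins lying close together on 1 strand were also taken as groups. Of 35 groups of hairpins within 10 kb of each other and with at least 3 compared arms, 11 had a median log2 ratio of at least 1 and 2 had one of at most -1. Those 11 were the 2 pairs of miR-181a and miR-181b, the X-linked cluster, the Mir500 to Mir532 group, the Sfmbt2 cluster, the miR-322 group, and the pairs of miR-212 with miR-132, miR-34c with miR-34b, miR-221 with miR-222, miR-421 with miR-374b and miR-16-1 with miR-15a. Per tag of any kind, 6 of the 11, these 5 pairs and the miR-322 group, had no arm called higher, and the Sfmbt2 cluster had 1. The 2 lowered groups were miR-181d and miR-181c and the Mir124a-1 to Mir3078 pair. The miR-212 and miR-132 pair, whose transcription follows neuronal activity and of which 1 of 3 compared arms was at 10 CPM in DMSO, was low, at 74.1 CPM after retinoic acid and 25.1 CPM in DMSO, 2.96-fold higher (1.99 to 4.39).

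The 2 arms of a hairpin were set side by side as well. Of 175 hairpins with both arms compared, 43 had both called higher and 4 both lower. In 37 the call was higher for 1 arm alone and in 19 lower for 1 arm alone, 71 had no call, and 1 had opposite calls. That hairpin was miR-149, with miR-149-5p at 39.8 CPM after retinoic acid and 4.64 CPM in DMSO (8.57-fold higher (4.06 to 19.7)) and miR-149-3p lower as given above. Across the 175 hairpins, Pearson's r between the log2 ratios of the arms was 0.78, a description in which the arms share library, depth and, at some loci, tags. Of 62 hairpins with both arms at 100 CPM or more, 9 had arms whose ratios differed at least 2-fold. After miR-296 the widest gaps were those of miR-431, with miR-431-5p at 413 CPM after retinoic acid and 122 CPM in DMSO and miR-431-3p at 288 CPM after retinoic acid and 243 CPM in DMSO, and of miR-181a-2 above. For miR-181a-2 the 5p arm pools tags of the hairpins on chromosomes 1 and 2, so its gap does not compare strands of a single hairpin. miR-345 followed, with miR-345-5p at 141 CPM after retinoic acid and 52.4 CPM in DMSO and miR-345-3p at 383 CPM after retinoic acid and 396 CPM in DMSO, and then miR-290a, whose 3p arm fell further than its 5p arm.

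The ends of the microRNAs were compared in 87 arms with at least 1000 tags in both libraries. The 5′ start, which sets the seed, was nearly constant. The share of tags at the main start differed by less than 2 percentage points in 76 of the 87 arms. The exception in size was miR-140-3p, from an exon of Wwp2 on chromosome 8 (chr8:107551288-107551310, plus strand), for which 2 starts 1 base apart share the tags. The most abundant tag at each start is shown with its seed in capitals.
miR-140-3p, RefSeq start: tACCACAGggtagaaccacggac
miR-140-3p, start 1 base later: aCCACAGGgtagaaccacggac

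Tags with the RefSeq start made up 44.3% (43.9 to 44.8) after retinoic acid and 59.0% (58.8 to 59.3) in DMSO, and 55.1% to 63.5% in the other 4 libraries. Tags that start 1 base later made up 54.5% (54.01 to 54.97) after retinoic acid and 40.1% (39.9 to 40.4) in DMSO, and 35.7% to 43.7% elsewhere. Only after retinoic acid was the later start the more frequent. In level, the RefSeq-start form had 25282 CPM after retinoic acid and 39426 CPM in DMSO, and the later form had 31072 CPM after retinoic acid and 26814 CPM in DMSO. The arm as a whole had 57019 CPM after retinoic acid and 66818 CPM in DMSO and was not called. miR-433-3p also lay outside the range of the other libraries, and had 82.1% (81.2 to 82.9) after retinoic acid and 77.99% (77.4 to 78.6) in DMSO at its main start, with 77.1% to 79.03% elsewhere, while for miR-291b-5p, miR-210-3p and miR-101b-3p the retinoic acid value lay within the range of the other 5 libraries.

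**Figure D5:**
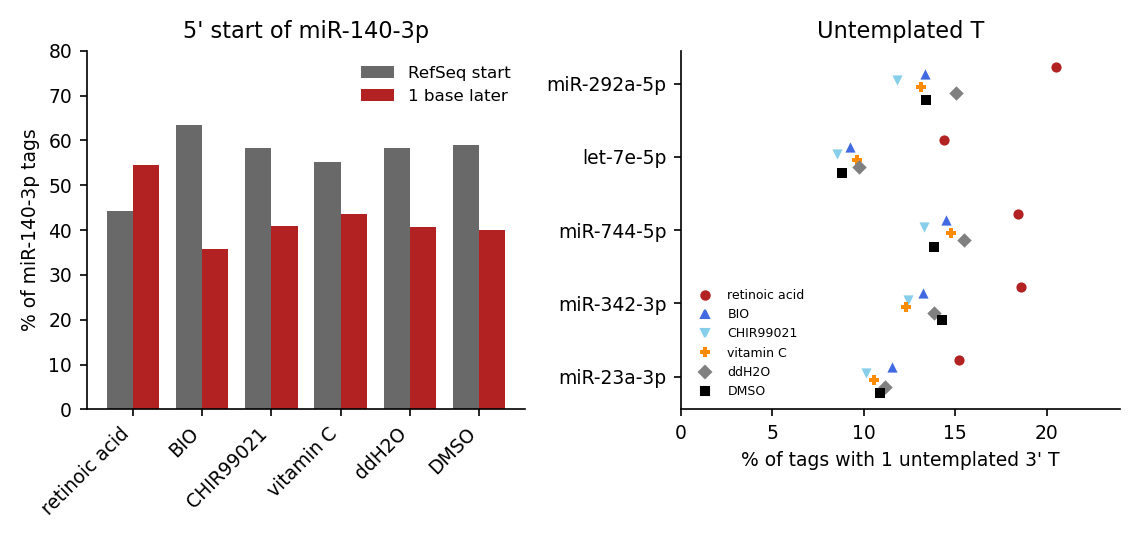
Left, share of miR-140-3p tags with the RefSeq 5′ start (grey) and with a start 1 base later (red) in the 6 libraries, in percent. Right, share of tags with 1 untemplated T at the 3′ end for 5 arms, 1 symbol per library. The red bar exceeds the grey one only after retinoic acid (54.5% against 44.3%). The retinoic acid symbols lie furthest right for all 5 arms, which were chosen for their large difference from DMSO.

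At the 3′ end, tags extended by 1 T that the hairpin does not encode were more frequent after retinoic acid. Such tails are added by terminal uridylyltransferases and can mark a microRNA for decay. Over all microRNA tags they made up 4.60% after retinoic acid and 3.66% in DMSO, with 3.48% to 4.31% in the other 4 libraries. The 4.31% was that of ddH2O, so the vehicles also differed. The share was larger after retinoic acid in 63 of the 87 arms, by a median of 0.159 percentage points. Only abundant arms were examined, and the 5 with the largest difference from DMSO are given. miR-292a-5p had 20.5% (19.1 to 21.96) after retinoic acid and 13.4% (12.9 to 13.9) in DMSO with 11.8% to 15.02% elsewhere, and let-7e-5p had 14.4% (13.6 to 15.2) after retinoic acid and 8.81% (8.43 to 9.20) in DMSO with 8.53% to 9.75% elsewhere. miR-744-5p had 18.5% (17.7 to 19.3) after retinoic acid and 13.8% (13.4 to 14.3) in DMSO, miR-342-3p had 18.6% (17.2 to 20.1) after retinoic acid and 14.3% (13.2 to 15.4) in DMSO, and miR-23a-3p had 15.2% (13.4 to 17.1) after retinoic acid and 10.9% (10.1 to 11.7) in DMSO. In each of the 5 the retinoic acid value was the highest of the 6 libraries, which their choice by the difference from DMSO favours. Tags extended by 1 A made up 3.48% of all microRNA tags after retinoic acid and 3.53% in DMSO, although 60 of the 87 arms had more of them after retinoic acid. Tags averaged 22.10 bases after retinoic acid and 22.05 bases in DMSO. The largest length difference was in miR-541-5p, which averaged 24.3 bases after retinoic acid and 23.5 bases in DMSO, against 23.0 to 23.4 bases elsewhere.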

How the data were processed

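The deposited files list each distinct tag with its raw count, as the authors deposited it, and its length in bases (18 to 44), with no gene, no coordinate and no header. Per the labels' protocols, total RNA was extracted with TRIzol, and 1 µg entered an Illumina TruSeq RNA preparation. The submitters' processing notes name the mm9 build. Trimming, filters and any aligner are not given in the sources used here.

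From the counts, tags of 18 to 26 bases were matched exactly to 1174 microRNA hairpins of GENCODE M21 (GRCm38), which is the build of all coordinates given. An arm was the most abundant tag of each hairpin side with tags starting within 2 bases of it. Arms with the same leading tag were merged, and tags of several arms were split evenly. Tags that also matched ribosomal RNA, mitochondrial RNA, snoRNA or snRNA entries of GENCODE were left out, but the large ribosomal subunit and nuclear tRNA were not searched. Names follow RefSeq mature microRNAs (GRCm38.p6) for 967 of 1265 arms and for 426 of the 533 compared, and otherwise the hairpin's symbol and side. Levels are CPM of microRNA tags, folds are ratios of CPM with a 95% Clopper-Pearson interval of the share of counts, and log2 ratios use a pseudocount of 0.5 counts. Scaling factors came from edgeR 4.0.16 (TMM) and DESeq2 1.42.0 (median of ratios) in R 4.3.3, which were used for no test, since each group has 1 library. Other steps ran in Python 3.11.15 with scipy 1.17.1, and counting and calling were tested on simulated data.

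Named arms had to reach 100 CPM in either library, and were the 12 called with the largest increase and the 10 with the largest decrease, together with the 10 most abundant of each library, up to 4 per list by mean level, and the 5 largest differences between strands, starts and ends. Other arms in the text were named after their values were seen. The 27 lists and the members were chosen with earlier results of these data known. Alternatives were other scales, another control, minimum, fold, tag length, tag sharing and arm definition.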

Additional observations from a re-analysis of the deposited data

How the results depend on the processing

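The 177 higher and 41 lower calls depended first on scale. Higher calls numbered 102 under TMM and 51 per tag of any kind, and lower calls 93 under TMM, 72 under median-of-ratios scaling and 294 per tag of any kind. A minimum of 50 CPM left 111 higher and 26 lower calls, and 15 calls between the vehicles in place of 35. A 4-fold threshold left 78 higher and 11 lower, and a 1.5-fold threshold gave 68 lower. The counts moved by less than 1.5 times under median-of-ratios scaling (121 higher), with no minimum, without shared or singly counted tags, with the leading tag alone, with untemplated ends, with tags of 20 to 24 bases, with other RNA classes kept, and with ddH2O as control (142 higher, 35 lower). Similar counts can hold different arms. With ddH2O as control, 125 of the 177 higher and 23 of the 41 lower calls were kept.

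Of the called named arms, miR-296-3p changed direction with tags of 20 to 24 bases (log2 ratio 0.20) and against ddH2O (0.87). Per tag of any kind these turned negative: miR-669c-5p (-0.41), miR-21a-5p (-0.38), miR-16-5p (-0.58), miR-503-5p (-0.29), miR-222-3p (-0.55), miR-221-3p (-0.26), miR-29c-3p (-0.27), miR-26a-5p (-0.59), miR-669a-3p (-0.0340) and miR-467a-3p (-0.14). List medians changed sign in 8 of 26 lists under TMM, 7 under median-of-ratios scaling, 18 per tag of any kind and 5 against ddH2O.

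No paired analysis was possible because the labels give no replicate numbers and each group has 1 library. The smaller microRNA count after retinoic acid makes its floor, 4.11 CPM, the limit for rare arms that were lower.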

Other observations

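Arms annotated as miR-6236 and miR-6240 were higher after retinoic acid. miR-6236-5p had 2584 CPM after retinoic acid and 489.5 CPM in DMSO, with 48.9% of its tags at 18 to 19 bases. miR-6240-5p had 1773 CPM after retinoic acid and 323 CPM in DMSO, with 99.6% at those lengths. Over all microRNA tags the share at 18 to 19 bases was 3.91% after retinoic acid and 4.95% in DMSO. Tags of these arms were not checked against the large ribosomal subunit.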
